A study of Mus musculus with 15 samples.

Results

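The genes described here are 10 heat shock proteins and co-chaperones, Hspa1a, Hspa1b, Hspa8, Hspb1, Hspb8, Cryab, Dnajb1, Hsph1, Hsp90aa1 and Bag3. They were chosen by symbol from an RNA-sequencing count table of mouse C2C12 myotubes. All 10 of 10 were among the 42807 symbols listed, and all 10 passed the filter on low counts that left 14461 genes for testing. C2C12 is 1 line of mouse myoblasts, which fuse in low serum into myotubes with many nuclei, while some cells of the culture stay undifferentiated. The 15 libraries formed 5 groups of 3, each made from myotubes differentiated for 6 days and then kept for 24 h under 1 condition. One group was non-treated, 1 received vehicle (0.1% DMSO), and 3 received Jakyak-gamcho-tang (JGT), an extract made in hot water from the roots of peony and licorice, at 20, 100 or 500 µg/mL. Per the labels, the highest dose was set from a fitted curve as one that left most myotubes viable. No dexamethasone is named in the treatment of these cells.

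Heat shock proteins keep other proteins folded. HSP70 proteins bind exposed hydrophobic stretches in cycles of ATP hydrolysis that J-domain proteins start and nucleotide exchange factors end, HSP90 finishes the folding of kinases and receptors, and small heat shock proteins hold unfolded proteins without ATP. Their stress-inducible members are classical targets of heat shock factor 1 (HSF1), which binds repeated nGAAn units in their promoters. In muscle, small heat shock proteins protect desmin, actin and titin, and BAG3 joins HSP70 to HSPB8 to clear damaged filamin at the Z-disc by autophagy.

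The family moved in both directions at the highest dose and by small amounts. At 500 µg/mL against vehicle, Hsph1, Hspb8, Hspb1 and Hspa1b rose, Dnajb1 and Hspa1a fell, and Hspa8, Bag3, Cryab and Hsp90aa1 were not called. The largest change of a member was the 1.41-fold rise of Hsph1. The 4 members that rose and 2 that fell compare with 16.5% of all genes tested that rose and 16.8% that fell in this comparison, 33.3% in all. The median log2 fold change of the members was 0.13, beside 0.01 over all tested genes. Without JGT 500 replicate 2, which lay apart from its group, 5 members rose and 2 fell, the fifth being Hsp90aa1. At 100 µg/mL 2 members rose over vehicle and none fell, where 2.09% of all genes tested rose and 2.22% fell, 4.31% in all. At 20 µg/mL 1 member rose and none fell, where 0.173% were higher and 0.152% lower, 0.325% in all. Between vehicle and non-treated myotubes 1 member was higher and none lower, where 0.553% were higher and 0.754% lower, 1.31% in all. Between 100 and 20 µg/mL none was called, 0 higher and 0 lower, where 0.297% were higher and 0.131% lower, 0.429% in all. Of counts scaled to a common library total, these 10 genes took 0.366% to 0.369% in the 3 vehicle libraries and 0.401% to 0.416% in the 3 JGT 500 libraries. They took 0.373% to 0.385% in non-treated, 0.376% to 0.388% at 20 µg/mL and 0.382% to 0.388% at 100 µg/mL. Vehicle was thus the lowest group and 500 µg/mL the highest, and neither overlapped another group. The most abundant members, Hspa8, Cryab and Hsp90aa1, weigh most in this summed share, and none of them was called at 500 µg/mL against vehicle. Their group means were nevertheless higher at 500 µg/mL than in vehicle. The higher summed share thus does not show a rise of each member.

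Some facts of the whole series bear on these values. Library totals ran from 26012826 to 36854201 counts. Of 10 myotube markers, 8 had a row under the symbol used and all 8 were detected in every library, with a summed level of 17962 to 19203 CPM (CPM is the count scaled to a common library total, corrected by TMM) in vehicle and 17768 to 18919 CPM at 500 µg/mL. Behind these sums, 4 of the 8 were higher at 500 µg/mL, Cav3 (log2 0.32), Des (0.29), Myog (0.26) and Tnnt3 (0.13), and 2 were lower, Ckm (−0.48) and Myh3 (−0.18). Of 5 adipocyte markers none was tested, Cidec was at 0 everywhere and their sum was at most 0.176 CPM at 500 µg/mL. The 4 endothelial and 3 macrophage markers found in the table summed to at most 1.97 and 1.66 CPM in any group. The 4 markers of dividing cells summed to 283 to 293 CPM in non-treated, 230 to 235 in vehicle, 208 to 216 at 20, 186 to 191 at 100 and 95.01 to 99.1 CPM at 500 µg/mL. The 6 markers of undifferentiated or reserve cells summed to 199 to 206 CPM in vehicle and 142 to 159 CPM at 500 µg/mL, where Heyl, Vcam1, Cd34 and Pax7 were lower (log2 −0.86 to −0.30), Spry1 was higher (0.47; adjusted p = 1.54e-06) and Myf5 was not called. Their part in the changes of the chaperone genes was not tested. In such bulk samples, fewer cells of a type and less RNA per cell cannot be told apart. The titles of all libraries name the same batch. The sample codes of the control libraries and of the JGT libraries nevertheless come from separate numbering series. A difference between JGT and control libraries thus cannot be told apart from a difference between those series, whereas differences between JGT doses can. The extract was dissolved in a stock holding DMSO. No source used here says whether DMSO was made equal between doses, or between the JGT groups and the vehicle. No label says that replicate libraries are separate cultures. What the p-values weigh is the spread between libraries, which may be technical.

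Levels between genes were compared per length, as CPM per kilobase of the exons annotated for the gene in GENCODE M21. This length joins the exons of every annotated transcript, 4301 bases for Hspa8 and 7266 for Hsph1. It can exceed the length of the transcripts expressed, so the order of genes can change with the length used. In vehicle, Cryab was highest at 421 ± 16.8 CPM per kb (SD, n = 3), followed by Hspb1 at 367 ± 11.9 and Hspa8 at 353 ± 7.64. Hsp90aa1 came next at 147 ± 1.88 CPM per kb, then Hspb8 at 113 ± 1.2, Bag3 at 54.0 ± 0.631 and Dnajb1 at 19.3 ± 0.896. Lowest were Hspa1b at 15.02 ± 0.832, Hsph1 at 14.6 ± 0.143 and Hspa1a at 3.49 ± 0.237 CPM per kb. On this measure Hspb1 and Hspa8 did not differ beyond the spread of their libraries, nor did Hspa1b and Hsph1. The constitutive Hspa8 and the small heat shock proteins of muscle thus stood well above the inducible Hspa1 genes in vehicle cultures.

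**Figure D1:**
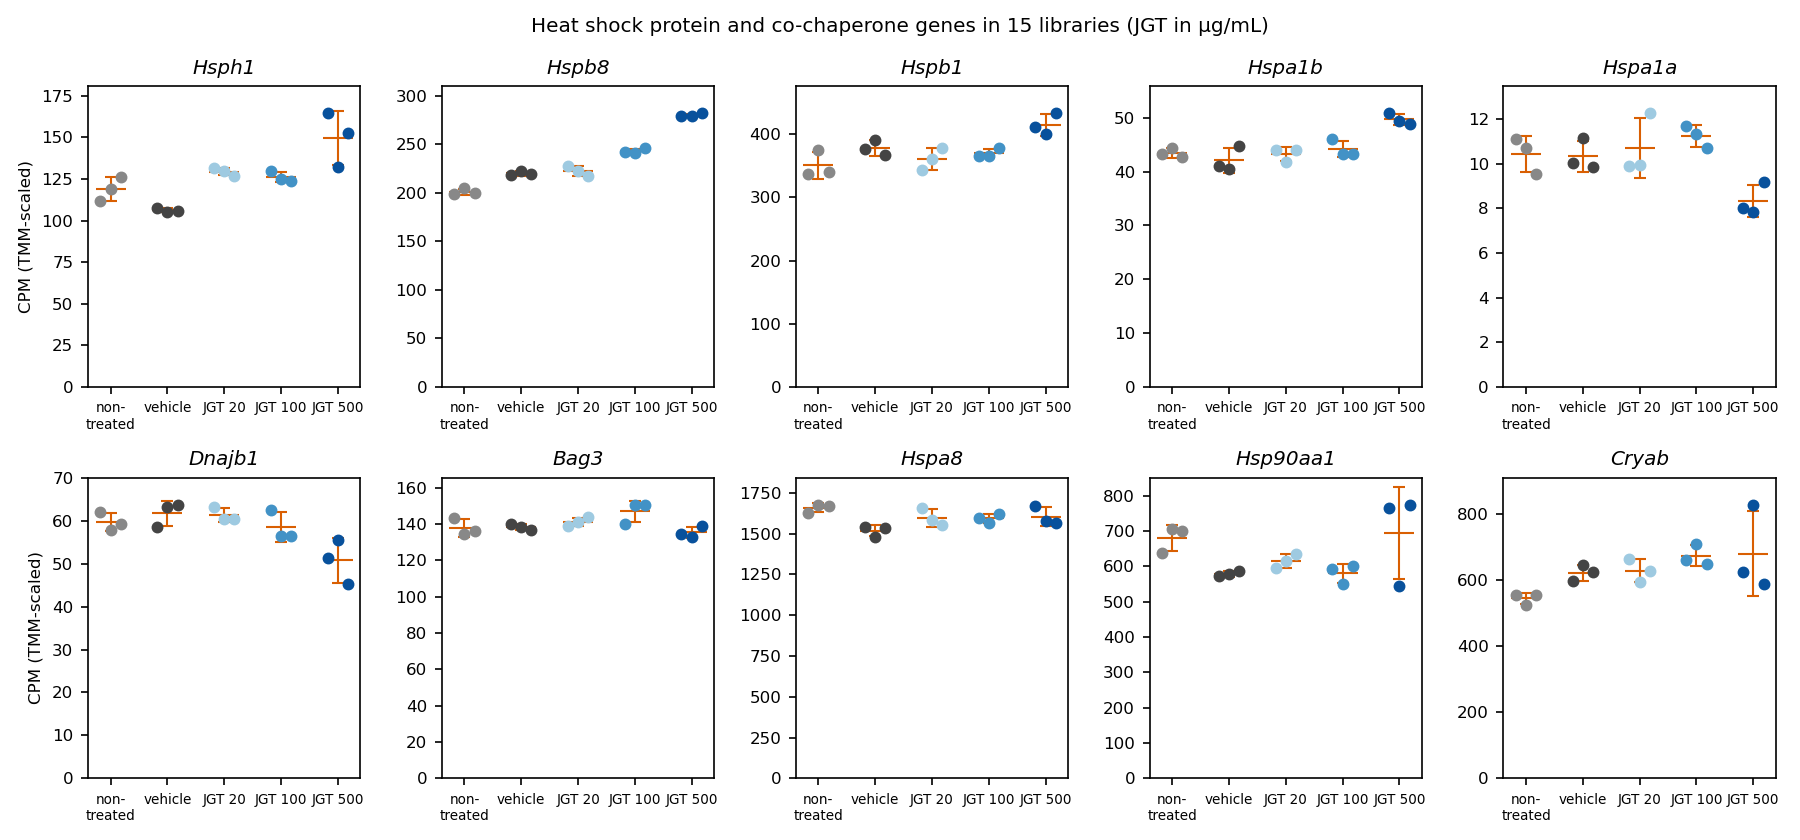
Level of each of the 10 genes in CPM (scaled by TMM) in every library, with the 5 groups on the x axis, points for libraries, and bars for the mean and SD of 3 libraries. Hspb8 lies at 279 to 282 CPM in the 3 JGT 500 libraries, above every other library, while Hsp90aa1 and Cryab each have 1 JGT 500 library apart from the other 2.

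The promoters are shown because several members are known HSF1 targets and because the 2 Hspa1 copies moved apart. The RefSeq promoter table (GRCm38.p6) held 7 of the 10 members, without Hspa8, Cryab and Hsp90aa1. Each window printed covers the 250 bases before the gene's start in RefSeq, on the gene's strand and 5′ to 3′, and capitals mark GAANNTTC or TTCNNGAA, which are pairs of HSF1 units (each reads the same on both strands).
Hspa1a: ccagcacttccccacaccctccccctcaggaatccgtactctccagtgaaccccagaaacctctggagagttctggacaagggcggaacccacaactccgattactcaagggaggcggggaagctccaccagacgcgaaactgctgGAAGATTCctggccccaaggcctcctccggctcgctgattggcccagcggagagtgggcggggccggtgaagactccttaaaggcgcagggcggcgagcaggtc
Hspa1b: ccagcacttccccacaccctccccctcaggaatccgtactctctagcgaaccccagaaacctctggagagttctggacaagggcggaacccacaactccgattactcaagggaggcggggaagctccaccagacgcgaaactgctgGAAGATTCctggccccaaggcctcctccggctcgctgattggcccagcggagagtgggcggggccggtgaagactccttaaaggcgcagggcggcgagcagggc
Hspb1: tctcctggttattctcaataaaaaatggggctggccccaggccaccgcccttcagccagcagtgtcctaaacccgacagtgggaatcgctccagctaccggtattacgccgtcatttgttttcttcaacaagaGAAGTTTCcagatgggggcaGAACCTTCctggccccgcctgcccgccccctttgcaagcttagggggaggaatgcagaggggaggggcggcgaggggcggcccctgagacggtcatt
Hsph1: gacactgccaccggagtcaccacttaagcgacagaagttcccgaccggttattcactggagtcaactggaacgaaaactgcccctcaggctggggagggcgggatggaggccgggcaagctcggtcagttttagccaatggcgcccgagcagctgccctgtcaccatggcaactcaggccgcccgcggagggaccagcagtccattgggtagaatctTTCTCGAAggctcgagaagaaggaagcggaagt
Hspb8: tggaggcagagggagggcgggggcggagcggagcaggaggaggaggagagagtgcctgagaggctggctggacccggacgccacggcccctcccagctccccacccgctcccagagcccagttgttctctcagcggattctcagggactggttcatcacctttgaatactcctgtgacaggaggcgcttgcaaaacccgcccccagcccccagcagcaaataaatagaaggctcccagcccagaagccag
The windows lie at chr17:34972157-34972406 for Hspa1a, chr17:34959239-34959488 for Hspa1b, chr5:135887669-135887918 for Hspb1, chr5:149636337-149636586 for Hsph1 and chr5:116422865-116423114 for Hspb8. Hspb1 is on the + strand and the other 4 on the − strand. Hspa1a and Hspa1b each held 1 pair, Hspb1 held 2 and Hsph1 held 1, whereas the windows of Hspb8, Dnajb1 and Bag3 held none. In GENCODE M21 the Hsph1 gene reaches to 149636376, so its window overlaps the gene there. The Hsph1 pair lies within that overlap. Of 32851 promoter windows of the same length, 12.8% held a pair in either order. The longer motif of 3 units (GAANNTTCNNGAA, searched on both strands), which contains the pair, was in 0.466% of all windows and in none of these 7. A match describes the letters alone.

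Hsph1 encodes the large HSP110 chaperone, which releases ADP from HSP70 and helps it to dissolve aggregates. Its gene spans 149614287 to 149636376 on chromosome 5 (GRCm38, − strand). Hsph1 stood at 111.5, 119.2 and 125.9 CPM in non-treated, 107.3, 105.3 and 106.0 in vehicle, 131.5, 129.7 and 127.1 at 20 µg/mL, 129.9, 125.1 and 124.0 at 100 µg/mL, and 164.5, 132.3 and 152.4 at 500 µg/mL. Every JGT library was above every vehicle library, while the non-treated libraries overlapped those at 100 µg/mL. Against vehicle, Hsph1 rose 1.22-fold at 20 µg/mL (log2 0.29 ± 0.0587, SE; adjusted p = 0.0426), 1.19-fold at 100 µg/mL (0.25 ± 0.0586; adjusted p = 0.0178) and 1.41-fold at 500 µg/mL (0.49 ± 0.0587; adjusted p = 3.03e-06). It was also higher at 500 than at 100 µg/mL (log2 0.24 ± 0.0581; adjusted p = 0.00608) and than at 20 µg/mL (0.21; adjusted p = 0.0134). With non-treated myotubes as the control, an alternative added after seeing the data, the calls at 20 and 100 µg/mL were lost (log2 0.12 and 0.09; adjusted p = 0.314 and 0.425) and the rise at 500 µg/mL was 1.26-fold (adjusted p = 0.000228). The call at 20 µg/mL was lost when any 1 of the 6 libraries compared was left out (adjusted p = 0.0949 to 0.205) or with library totals as the only scaling (adjusted p = 0.0546), and that at 100 µg/mL when any but JGT 100 replicate 3 was (adjusted p = 0.051 to 0.0839). The call at 500 against 20 µg/mL was lost without JGT 20 replicate 3 or JGT 500 replicate 1 or 3 (adjusted p = 0.0523 to 0.0984).

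Of the 3 small heat shock proteins among the 10 genes, Hspb8 rose by the most at 500 µg/mL. HSPB8 is the partner of BAG3, and its gene lies at 116408491 to 116422864 on chromosome 5 (GRCm38, − strand). Hspb8 stood at 198.6, 204.7 and 199.6 CPM in non-treated, 218.1, 222.7 and 219.8 in vehicle, 227.3, 222.9 and 217.8 at 20 µg/mL, 241.9, 240.8 and 246.1 at 100 µg/mL, and 279.8, 279.3 and 282.1 at 500 µg/mL. The libraries at 100 and 500 µg/mL formed separate bands, each above all libraries of the lower doses and of both controls. The rise over vehicle was 1.103-fold at 100 µg/mL (log2 0.14 ± 0.0305; adjusted p = 0.00871) and 1.27-fold at 500 µg/mL (0.35 ± 0.0306; adjusted p = 2.17e-08), and at 20 µg/mL Hspb8 was not called (0.02; adjusted p = 0.884). With non-treated as the control it was called at 20 µg/mL too (0.15; adjusted p = 0.0098). The call at 100 µg/mL was lost without vehicle replicate 3 or JGT 100 replicate 3 (adjusted p = 0.0504 and 0.0509). Hspb8 was also higher at 500 than at 100 µg/mL (log2 0.21 ± 0.0304; adjusted p = 4.76e-05). Between 100 and 20 µg/mL no member was called by edgeR, and Hspb8 was the 1 member with an unadjusted p below the threshold (log2 0.13; adjusted p = 0.0817), also called by DESeq2 (adjusted p = 0.00625). Hspb8 was higher in vehicle than in non-treated myotubes (log2 0.13 ± 0.0307; adjusted p = 0.0369), the 1 member called there. That call was lost when any 1 of the 6 libraries was left out (adjusted p = 0.0665 to 0.153) and with no filter on low counts (adjusted p = 0.081), whereas the rise at 500 µg/mL over non-treated was 1.40-fold (adjusted p = 1.29e-10).

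Hspb1, known as HSP25 in the mouse, holds unfolded proteins and acts on actin filaments. Its gene lies at 135887919 to 135889563 on chromosome 5 (GRCm38, + strand). Hspb1 stood at 377.2, 391.0 and 366.5 CPM in vehicle, 344.0, 360.5 and 378.1 at 20 µg/mL, 366.1, 365.3 and 378.2 at 100 µg/mL, and 411.3, 399.9 and 433.1 at 500 µg/mL. The JGT 500 libraries were the 3 highest of the 15. Hspb1 rose 1.097-fold over vehicle at 500 µg/mL (log2 0.13 ± 0.0450; adjusted p = 0.0277). Leaving out vehicle replicate 1 or 3 or JGT 500 replicate 1 or 3 ended this call (adjusted p = 0.0567 to 0.144), as did fitting these 2 groups alone (adjusted p = 0.0712). Against 20 µg/mL the rise was 1.15-fold (log2 0.20 ± 0.0449; adjusted p = 0.00234), and against 100 µg/mL 1.12-fold (adjusted p = 0.0132), the latter lost without JGT 100 replicate 1 or 2 or JGT 500 replicate 3 (adjusted p = 0.0584 to 0.0732).

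Cryab encodes αB-crystallin, the abundant small heat shock protein of muscle that binds desmin and titin, and its gene lies at 50751325 to 50756636 on chromosome 9 (GRCm38, + strand). Cryab stood at 554.6, 524.6 and 556.5 CPM in non-treated, 597.2, 646.6 and 625.5 in vehicle, 664.2, 594.6 and 627.6 at 20 µg/mL, 663.4, 711.8 and 649.9 at 100 µg/mL, and 625.9, 829.1 and 588.5 at 500 µg/mL. At the highest dose replicate 2 alone was high, and the other 2 libraries lay within or below the vehicle range. Cryab was not called against vehicle at any dose, with a log2 difference of 0.13 ± 0.102 at 500 µg/mL (adjusted p = 0.369). With non-treated as the control it was called higher at 500 µg/mL (0.32; adjusted p = 0.0316). Against vehicle, the difference at 500 µg/mL without JGT 500 replicate 2 was −0.04 (adjusted p = 0.489). Cryab was then lower at 500 than at 100 µg/mL (log2 −0.16, adjusted p = 0.0116). With all libraries that difference between doses was 0.01 (adjusted p = 0.946). The annotations of Cryab and of Hspb2 share 1030 bases on opposite strands of chromosome 9, and since no source used here gives the strand option of the counting, reads from that stretch cannot be told apart. Hspb2 stood at 66.1, 64.0 and 65.7 CPM in the 3 JGT 500 libraries and at 52.0, 51.8 and 49.8 in vehicle.

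The 2 inducible HSP70 genes, Hspa1a and Hspa1b, are neighbouring copies on chromosome 17 with 9951 bases between them, both on the − strand. Hspa1a lies at 34969190 to 34972156 and Hspa1b at 34956436 to 34959238 (GRCm38). Over the 250 bases printed above, Hspa1a and Hspa1b differed by C44T, T47C and T249G, written with the Hspa1a base first, the position from 1 at the 5′ end of the window, and the Hspa1b base last. Their coding sequences were 99.4% identical in GENCODE M21, with 8 substitutions and 3 bases of gap, and the encoded proteins differed by 1 residue of gap. Of the 100-base windows of the transcripts, 47.1% of those of Hspa1a and 49.9% of those of Hspa1b also occurred in the other copy, so the division of reads between them is uncertain, and the stretch after the stop codon was 44.1% identical. Such windows stand for single reads, whereas the libraries were paired-end, so the share of fragments that fit both copies may be lower. An antisense gene, Gm20481, shares 2225 bases of locus with Hspa1a and is listed at 0 in every library.

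The 2 copies moved in opposite directions at 500 µg/mL. Hspa1b stood at 41.01, 40.5 and 44.8 CPM in vehicle and at 50.8, 49.5 and 48.9 at 500 µg/mL, and the 2 groups did not overlap. It rose 1.18-fold (log2 0.24 ± 0.0449; adjusted p = 0.00035). Hspa1a stood at 10.0, 11.1 and 9.8 CPM in vehicle and at 8.0, 7.8 and 9.2 at 500 µg/mL, and these did not overlap either. Hspa1a fell to 0.805-fold (log2 −0.31 ± 0.0938; adjusted p = 0.0144). Leaving out vehicle replicate 2 or JGT 500 replicate 1 ended this call (adjusted p = 0.0774 and 0.0511). Against 100 µg/mL, Hspa1a was lower (log2 −0.43 ± 0.0912; adjusted p = 0.002) and Hspa1b higher (0.17; adjusted p = 0.0104), the latter a call lost without JGT 100 replicate 2 or 3 or JGT 500 replicate 1 (adjusted p = 0.0514 to 0.0631). Against 20 µg/mL, Hspa1a was lower by the same test (log2 −0.36; adjusted p = 0.00662; 0.0541 without JGT 20 replicate 3) and Hspa1b higher (0.20; adjusted p = 0.00235). The share of Hspa1a in the counts of the pair was 19.8 ± 1.78% in vehicle and 14.4 ± 1.26% at 500 µg/mL (SD, n = 3; two-sided exact permutation p = 0.1, the smallest that 3 against 3 libraries can give). As a sum, which no division of reads between the copies can alter, the pair stood at 52.5 ± 1.91 CPM in vehicle and 58.1 ± 0.775 at 500 µg/mL, a 1.11-fold rise (log2 0.15 ± 0.0435; adjusted p = 0.0138) that was lost without vehicle replicate 1 or 2 (adjusted p = 0.069 and 0.0538). Between 500 and 100 µg/mL the sum was not called (log2 0.07; adjusted p = 0.31).

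**Figure D2:**
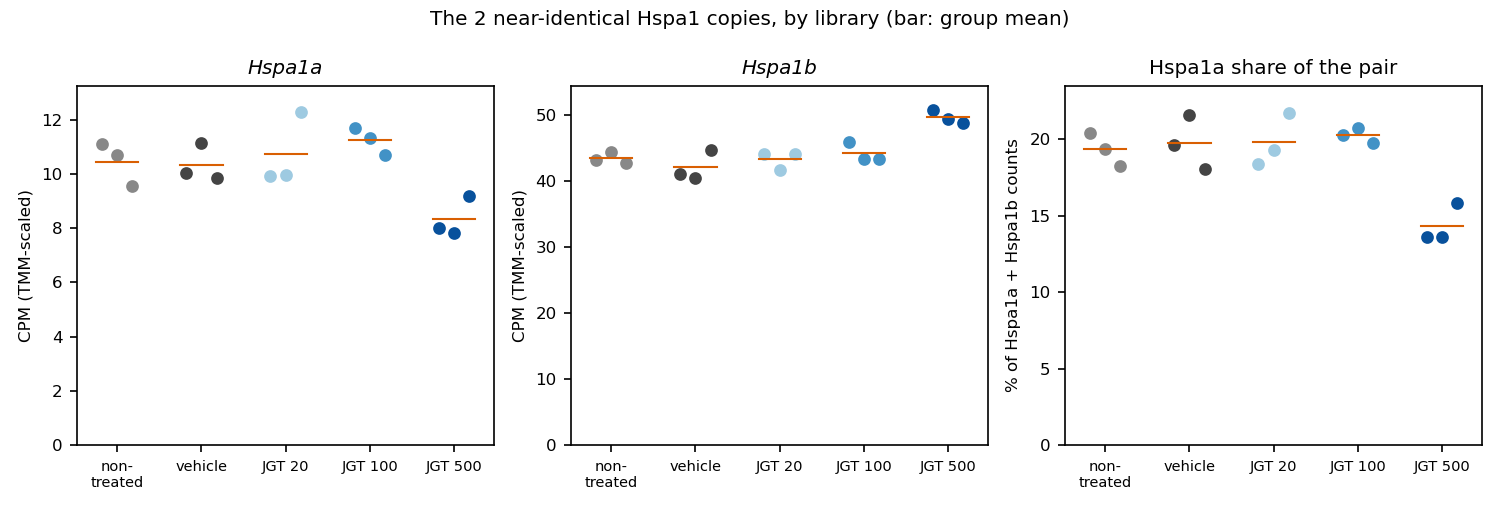
CPM of Hspa1a and of Hspa1b and the share of Hspa1a in the counts of both (percent), in every library of the 5 groups, with points for libraries and bars for group means. The JGT 500 libraries lie at 13.6% to 15.8%, below the 18.03% to 21.8% of the other 12 libraries.

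Of the other HSP70 system genes among the 10, Dnajb1 fell at 500 µg/mL, and the co-chaperone gene Bag3 and the HSP70 gene Hspa8 were not called against vehicle. Dnajb1 is the HSP40 J-domain protein that delivers clients to HSP70, and its gene lies at 83608193 to 83612653 on chromosome 8 (GRCm38, + strand). Dnajb1 stood at 58.5, 63.1 and 63.7 CPM in vehicle, 63.3, 60.4 and 60.5 at 20 µg/mL, 62.5, 56.5 and 56.4 at 100 µg/mL, and 51.4, 55.6 and 45.3 at 500 µg/mL. The JGT 500 libraries were the 3 lowest of the 15, and the fall against vehicle was to 0.823-fold (log2 −0.28 ± 0.0612; adjusted p = 0.00149). Against 20 µg/mL the log2 difference was −0.27 ± 0.0609 (adjusted p = 0.00248). At 500 against 100 µg/mL the difference was −0.20 (adjusted p = 0.0247), a call lost without JGT 100 replicate 1 or JGT 500 replicate 1 or 3 (adjusted p = 0.057 to 0.139).

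Bag3, the co-chaperone that couples HSP70 to HSPB8, lies at 128523616 to 128546981 on chromosome 7 (GRCm38, + strand). Bag3 stood at 143.3, 134.2 and 135.9 CPM in non-treated, 139.9, 138.4 and 136.7 in vehicle, 139.1, 141.2 and 143.5 at 20 µg/mL, 140.0, 150.5 and 150.2 at 100 µg/mL, and 134.4, 133.0 and 138.6 at 500 µg/mL. The libraries at 500 µg/mL overlapped those of vehicle and lay below all 3 at 100 µg/mL. Against vehicle Bag3 was not called at 500 µg/mL (log2 −0.03 ± 0.0372; adjusted p = 0.548), and it was lower at 500 than at 100 µg/mL (−0.12 ± 0.0370; adjusted p = 0.029), a call lost with library totals as the only scaling (adjusted p = 0.0863) and without JGT 100 replicate 2 or 3 or JGT 500 replicate 1 (adjusted p = 0.0758 to 0.108). Hspb8 thus rose at a dose where its partner Bag3 was not called against vehicle. An approximate 95% interval of the Bag3 difference, from the SE and a normal distribution, was −0.10 to 0.04 on the log2 scale. Hspa8, the constitutive HSC70, lies at 40800984 to 40810087 on chromosome 9 (GRCm38, + strand). It stood at 1626.4, 1676.7 and 1672.3 CPM in non-treated, 1539.2, 1479.7 and 1533.5 in vehicle, and 1672.4, 1575.0 and 1564.9 at 500 µg/mL. The vehicle libraries lay below both of these other groups. Hspa8 was not called against vehicle at any dose, with a log2 difference of 0.08 ± 0.0381 at 500 µg/mL (adjusted p = 0.114).

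Hsp90aa1, the inducible cytosolic HSP90α, lies at 110690605 to 110702728 on chromosome 12 (GRCm38, − strand). Hsp90aa1 stood at 639.5, 705.9 and 699.5 CPM in non-treated, 572.4, 577.4 and 586.9 in vehicle, 594.9, 614.9 and 634.2 at 20 µg/mL, 592.3, 550.7 and 601.2 at 100 µg/mL, and 764.4, 543.9 and 774.6 at 500 µg/mL. At the highest dose replicates 1 and 3 were above every other library of the series, and replicate 2 was the lowest of all 15. With all libraries Hsp90aa1 was not called against vehicle (log2 0.26 ± 0.106; adjusted p = 0.0789). Without JGT 500 replicate 2 it rose by 0.40 on the log2 scale (adjusted p = 7.97e-09), and it was then also higher at 500 than at 100 µg/mL (0.40; adjusted p = 2.25e-08). DESeq2 called the difference from vehicle with all libraries (adjusted p = 0.0494). With non-treated as the control the difference at 500 µg/mL was 0.03 (adjusted p = 0.88). Replicate 2 also gave the lowest of the 3 JGT 500 values for Hsph1 and Hspb1, the highest for Dnajb1 and, as above, for Cryab, while the 3 values of Hspb8 had a coefficient of variation of 0.539%.

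**Figure D3:**
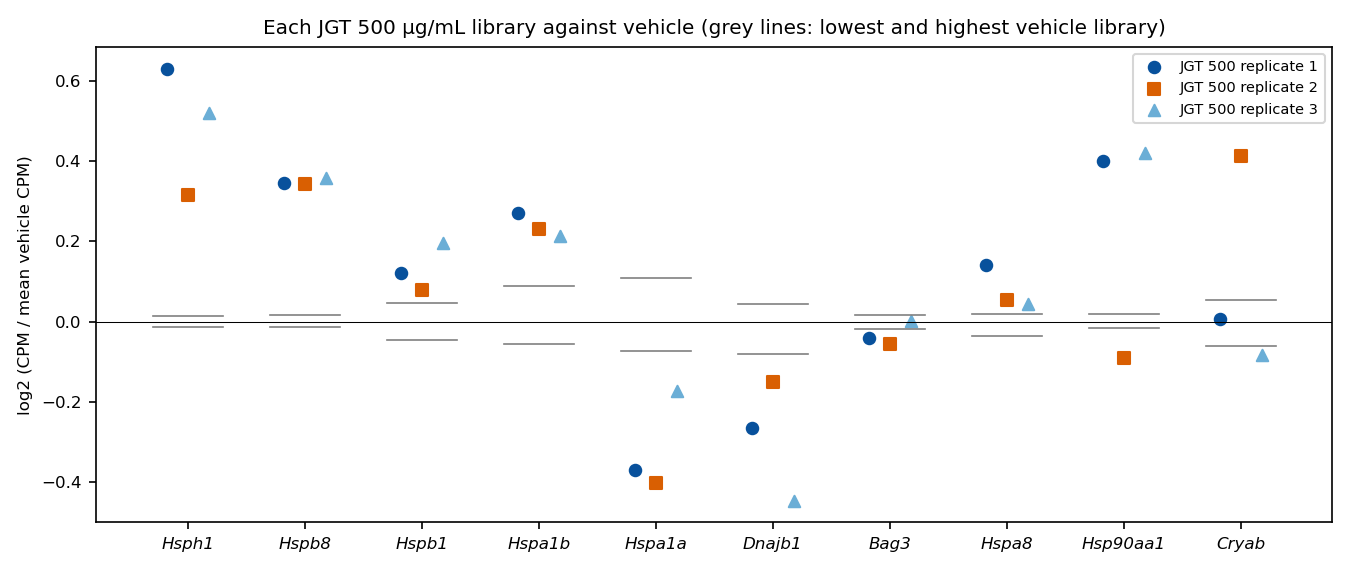
Log2 ratio of CPM in each JGT 500 µg/mL library to the mean of the 3 vehicle libraries, for the 10 genes on the x axis, with grey lines at the lowest and highest vehicle library. Replicate 2 (orange squares) lies at −0.09 for Hsp90aa1 and 0.41 for Cryab, where replicates 1 and 3 lie at 0.40 and 0.42 and at 0.01 and −0.08.

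Between JGT doses, which share the same sample code series, no member was called between 20 and 100 µg/mL and most were between 500 µg/mL and either lower dose. At 500 against 100 µg/mL, 4 members were higher and 3 lower, where 9.05% and 10.7% of all tested genes were, 19.7% in all. At 500 against 20 µg/mL, 4 were higher and 2 lower, where 11.1% and 12.2% of all genes were, 23.3% in all. The 4 higher members were Hsph1, Hspb8, Hspb1 and Hspa1b in both, and Hspa1a and Dnajb1 were lower in both. With only the 2 groups compared, 2 members were called at 500 against 100 µg/mL, and Hsph1, Hspb1, Hspa1b, Dnajb1 and Bag3 lost their calls (adjusted p = 0.0502 to 0.138), as did Hsph1 at 500 against 20 µg/mL (adjusted p = 0.0817). Left-out libraries moved the first count of 7 to between 4 and 9, and the second count of 6 to between 4 and 7. These comparisons share the JGT 500 libraries with the comparison against vehicle. Over the 5 group means, Hsph1 spanned 0.49 and Hspb8 0.48 on the log2 scale, more than 89.8% and 89.4% of all tested genes. Hspa8 and Bag3 spanned 0.13 and 0.12, more than 24.2% and 20.1% of genes.

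**Figure D4:**
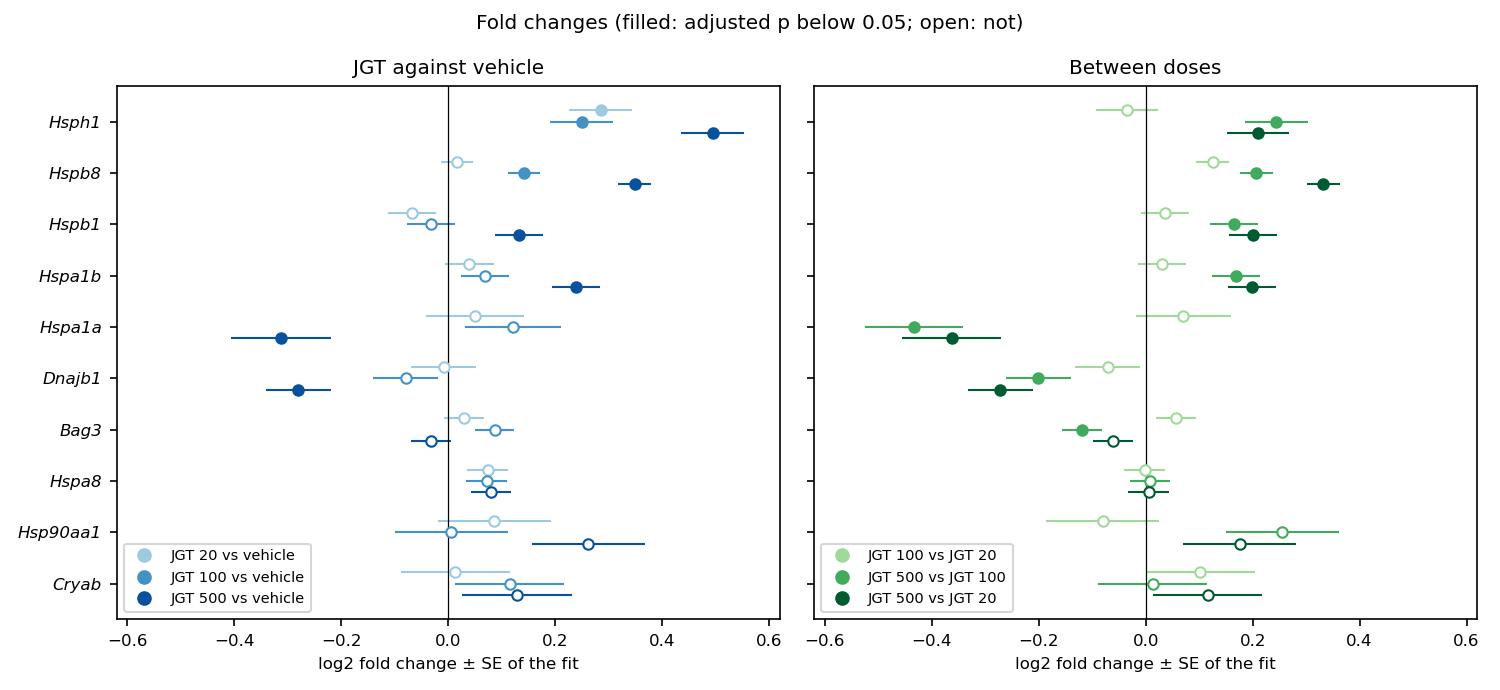
Log2 fold changes with the SE of the fit for the 10 genes, for each dose against vehicle on the left and between doses on the right; filled points have an adjusted p below 0.05. At 500 µg/mL Hsph1 and Hspb8 lie at 0.49 and 0.35, and Hspa1a and Dnajb1 at −0.31 and −0.28.

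Other chaperone genes were followed through 10 lists, with 102 of 108 genes tested. At 500 µg/mL against vehicle, 35 of the 102 rose and 10 fell (43 and 15 without JGT 500 replicate 2), 44.1% in all beside 33.3% of all tested genes, with a median log2 fold change of 0.04. At 20 µg/mL Hspb7 alone was called, higher, and at 100 µg/mL 2 rose and 2 fell, among them Hspb7 and Dnajb2 (higher) and Flna (lower), 0.98% and 3.92% of the 102 beside 0.325% and 4.31% of all tested genes. In vehicle against non-treated, Dnajc9, Hspd1 and Hspa9 were lower, 2.94% beside 1.31% of all. The median log2 difference of the 102 was −0.06 there, so a rise over vehicle need not be one over non-treated. Of the J-domain proteins, the longest list, 12 of 23 rose and 2 fell (median 0.08). Dnajb2, a neuronal and muscle J-domain protein that passes clients to the proteasome, rose from 60.0 to 74.7 CPM (log2 0.32 ± 0.0405; adjusted p = 4.4e-06), and Dnajb6, which suppresses aggregation and is mutated in a human limb-girdle muscular dystrophy, rose from 186 to 223 CPM (0.26 ± 0.0385; adjusted p = 2.69e-05). Dnajc21 (log2 0.48), a ribosome biogenesis factor, and Dnajc18 (0.21) rose too. The 2 that fell were Dnajc5 (−0.13; adjusted p = 0.0271), the synaptic vesicle protein CSPα, and Dnajc9 (−0.15; adjusted p = 0.0374), a histone chaperone.

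Among HSP90 and its co-chaperones, 8 of 20 rose and none fell (median 0.07). Hsp90ab1, the constitutive HSP90β, stood at 2714.4, 2631.1 and 2591.1 CPM in vehicle and at 3268.6, 2727.2 and 3213.0 at 500 µg/mL, with replicate 2 again the lowest, and rose (log2 0.21 ± 0.0552; adjusted p = 0.00515). The co-chaperones Ttc4 (0.21) and Cdc37 (0.19), which delivers kinases to HSP90, rose as well. For Hsp90ab1, Ttc4 and Cdc37 the non-treated libraries overlapped those at 500 µg/mL, for Cdc37 at 123.4 to 130.9 against 120.9 to 139.5 CPM. The list median was −0.08 in vehicle against non-treated. Of the other 4 tested small heat shock proteins, Hspb7 and Hspb2 rose and Hspb6 fell. Hspb7, a heart and muscle protein, stood at 169.2, 159.8 and 155.4 CPM in vehicle, 189.9, 190.3 and 194.4 at 20 µg/mL, 208.8, 210.0 and 219.9 at 100 µg/mL, and 237.6, 213.7 and 234.3 at 500 µg/mL. Its libraries were above all vehicle libraries at every dose, and its rise at 500 µg/mL was 1.42-fold (log2 0.50 ± 0.0416; adjusted p = 9.66e-09). Hspb2 rose 1.28-fold (adjusted p = 5.68e-06). Hspb6, the small heat shock protein HSP20, went from 19.7, 19.5 and 18.3 CPM to 13.2, 13.5 and 10.0 and fell (log2 −0.64 ± 0.0990; adjusted p = 7.03e-05). Hspb3 was not called (0.03; adjusted p = 0.877).

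The partners and clients of BAG3 split. Sqstm1, the autophagy receptor p62, stood at 577.1, 564.1 and 564.6 CPM in vehicle and at 859.7, 705.8 and 887.4 at 500 µg/mL and rose (log2 0.52 ± 0.0633; adjusted p = 5.93e-06). Of 7 genes, 2 rose and 3 fell. The filamin gene Flna (−0.40) and the Z-disc gene Synpo2 (−0.16) were among those that fell, the intermediate filament gene Des rose (0.29; adjusted p = 0.0269), and muscle filamin Flnc (0.03; adjusted p = 0.599) and the ubiquitin ligase gene Stub1 (0.19; adjusted p = 0.11) were not called. Of 5 other BAG genes, Bag1 (0.28; adjusted p = 0.00408) and Bag5 (0.17; adjusted p = 0.0142) rose and none fell, whereas 3 were higher and 1 lower without JGT 500 replicate 2. Bag5 stood at 41.6 CPM in that replicate, within the vehicle range of 39.0 to 41.7, and its non-treated libraries, at 44.4 to 45.7, lay above vehicle. The non-treated libraries of Bag1, at 293.8 to 334.4 CPM, overlapped those at 500 µg/mL, at 327.4 to 372.0. Of 4 tested heat shock factor genes, Hsf1 fell (−0.13, adjusted p = 0.0304), Hsf2 (0.16, adjusted p = 0.0375) and Hsf4 (0.41, adjusted p = 0.00472) rose and the inhibitor gene Hsbp1 was not called. Hsf2 stood at 31.7 CPM in JGT 500 replicate 2, within the vehicle range of 30.8 to 32.7 and the non-treated range of 31.1 to 32.9. The non-treated libraries of Hsf1, at 51.2 to 54.7 CPM, overlapped those at 500 µg/mL, at 49.2 to 53.3. Among 17 other heat shock factor targets, several of which the lists above also hold, 7 rose and 2 fell (median 0.08). Hspa4l, a second HSP110, rose (0.19; adjusted p = 0.000226), as did Dedd2 (0.31; adjusted p = 0.0102), while the collagen chaperone Serpinh1 went from 723.1, 788.8 and 806.3 CPM to 484.8, 618.9 and 469.9 and fell (log2 −0.56; adjusted p = 0.000237). The other that fell was the mitochondrial chaperonin Hspd1 (−0.10; adjusted p = 0.0356).

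Of the remaining lists, 2 of 10 other HSP70 system genes rose, Hspa4l and the co-chaperone St13 (0.15, adjusted p = 0.00474), and none fell. Without JGT 500 replicate 2 the counts were 3 higher and 1 lower. The non-treated libraries of St13, at 377.0 to 383.5 CPM, lay within its range at 500 µg/mL of 360.8 to 408.2. Among 11 mitochondrial chaperones and proteases, the disaggregase Clpb (0.16; adjusted p = 0.0064) and the protease Lonp1 (0.33; adjusted p = 0.0138) rose and Hspd1 fell, and without JGT 500 replicate 2 the counts were 4 higher and 1 lower. Lonp1 stood at 84.9 CPM in that replicate, within the vehicle range of 80.1 to 87.0, and at 109.9 and 115.8 in the other 2. Its non-treated libraries, at 85.9 to 98.1 CPM, lay within its range at 500 µg/mL. Of 14 subunits of the cytosolic chaperonin TRiC and of prefoldin, Pfdn2 rose (0.19; adjusted p = 0.00522), Cct6a fell (−0.08; adjusted p = 0.0459) and 12 were not called, and without JGT 500 replicate 2 the counts were 4 higher and 2 lower. Non-treated Pfdn2, at 40.7 to 40.9 CPM, lay within its range at 500 µg/mL of 40.1 to 45.4. Genes outside the 4 of each list with the smallest p were named after their values were seen.

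**Figure D5:**
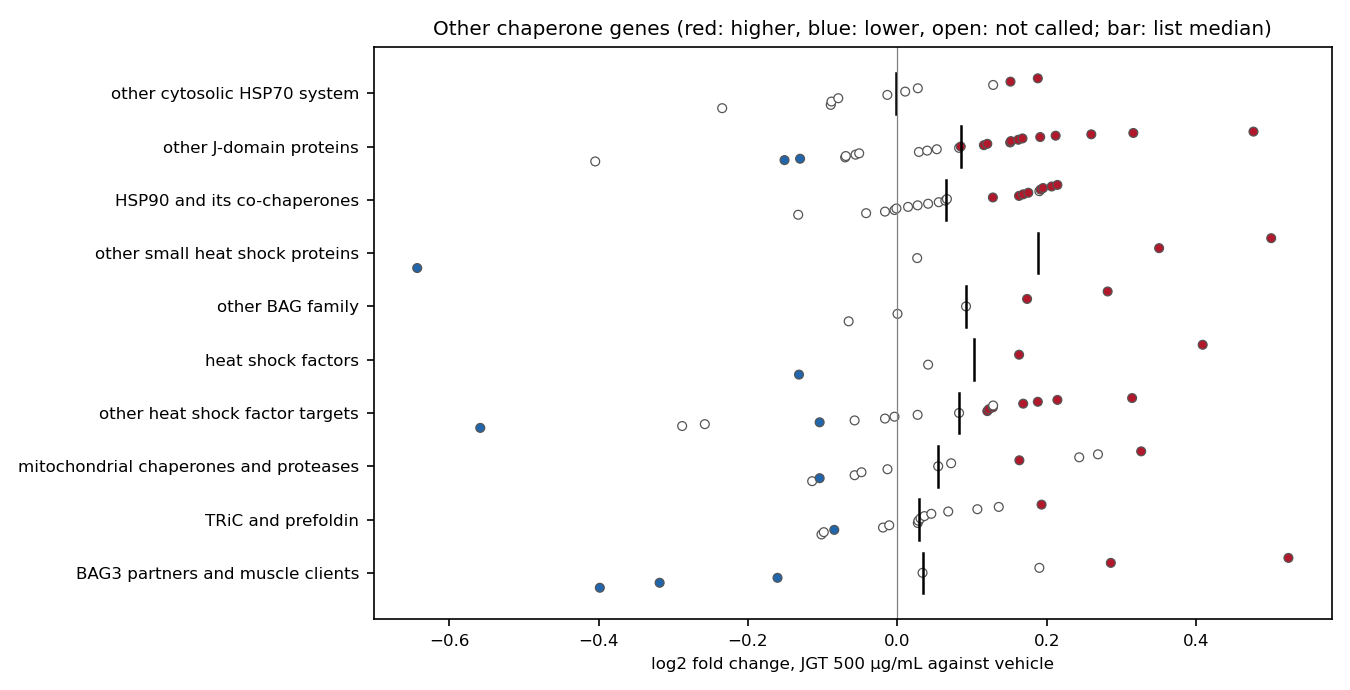
Log2 fold change at 500 µg/mL against vehicle for the tested genes of 10 chaperone lists, each point a gene, red for higher, blue for lower and open for not called, with a bar at the list median. Hspb7 at 0.50 and Hspb6 at −0.64 mark the ends of the small heat shock proteins.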

How the data were processed

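Gene expression was measured by paired-end sequencing of directional mRNA libraries in 15 samples, per the labels' protocols. The authors deposited expected counts per gene symbol, not normalized; per the submitters' processing notes RSEM 1.3.3 and STAR 2.7.3a were used with GRCm38 (mm10), besides Trim Galore 0.6.5 and FastQC 0.11.9. No source used here gives the annotation or strand option. Of the deposited values 9.34% were not whole (tolerance 0.005), and all were rounded. Columns were matched to samples by the codes in the labels. All 15 libraries entered 1 edgeR 4.0.16 quasi-likelihood fit (R 4.3.3, filterByExpr, TMM, robust, a mean per group, 10 residual degrees of freedom, biological coefficient of variation 5.31%). Tests were two-sided, with Benjamini-Hochberg adjustment over 14461 genes in each of 7 comparisons and calls below 0.05. The summed Hspa1a and Hspa1b counts were tested in the same table with both rows merged. CPM values are TMM-scaled. Levels per kb and coordinates used GENCODE M21 (GRCm38), the build named for the deposited counts.

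On simulated counts for JGT 500 against vehicle over 14461 genes, 67, 67 and 66 genes were changed by a log2 of 0.25, 0.5 and 1. The fit recovered 26.9%, 68.7% and 89.4% of them, and 4.65% of calls were false, so a small change can go uncalled. The data gave 4815 calls in this comparison, and the cut-off on p depends on the share of changed genes. These rates thus need not hold for the data. The members, the gene lists and the naming rule (all members, the 4 list genes with the smallest p at 500 µg/mL, and 3 genes of like pattern for members whose group means span at least 0.5 on the log2 scale) were chosen with earlier results of these data known; no member reached that span, so no gene of like pattern is named. Alternatives were another normalisation, library totals, DESeq2 1.42.0, other filters, only the compared groups, a replicate block, each library left out and, added after seeing the data, non-treated libraries as control. Some list genes that the naming rule selects are not reported here.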

Additional observations from a re-analysis of the deposited data

How the results depend on the processing

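Of 940 values of single members under alternatives, 830 kept direction and side of the threshold, 54 lost a call, 15 gained one and 41 changed sign; no member called with all libraries changed sign, and 1 of the 41 was called under its alternative (Cryab, 500 against 100 µg/mL, without JGT 500 replicate 2). At 500 µg/mL against vehicle, Hsph1, Hspb8, Hspa1b and Dnajb1 stayed called under all 14 alternatives. Depth and 3 libraries per group limit the detection of changes as small as these.

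In fits leaving out 1 library, the member count was always 0 between vehicle and non-treated myotubes and at 20 µg/mL over vehicle (1 with all), 0 to 1 for JGT 100 against vehicle (2), 4 to 9 for JGT 500 against 100 (7), 4 to 7 for 500 against vehicle and against 20 (6), and 0 for 100 against 20. Without JGT 500 replicate 2 it was 9 for 500 against 100, and without JGT 100 replicate 2 or JGT 500 replicate 1 it was 4. The count over all genes ran from 36 to 88 for vehicle against non-treated (189), 18 to 36 for JGT 20 against vehicle (47), 315 to 409 for JGT 100 against vehicle (623), 19 to 41 for 100 against 20 (62), 1880 to 4989 for 500 against 100 (2853) and 2532 to 5165 for 500 against 20 (3369), the highest values of the last 2 being without JGT 500 replicate 2. The Hspa1a and Hspa1b sum at 500 µg/mL against vehicle ran from 0.12 to 0.17.

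With only the 2 groups compared, the member count was 5 for vehicle against non-treated, 1 for 100 against 20 and 2 for 500 against 100, the count over all genes was 1031 between the controls, 330 at 20 and 1369 at 100 µg/mL over vehicle, 191 for 100 against 20, 1313 for 500 against 100 and 1982 for 500 against 20, and the Hspa1a and Hspa1b sum lost its call (0.15; adjusted p = 0.0522). DESeq2 gave 2 members for vehicle against non-treated and 1 for 100 against 20, and 321 and 91 genes for vehicle against non-treated and JGT 20 against vehicle. With library totals only, 0 members were called for JGT 20 against vehicle, and Hsp90aa1 at 100 µg/mL was −0.0039. With no filter, 73 genes were called for JGT 20 against vehicle, and Hspa8 was 0.0034 for 100 against 20 and −0.0025 for 500 against 100. With non-treated as the control, 450 and 1320 genes were called at 20 and 100 µg/mL, 1 member at 100 µg/mL, and the sum at 500 µg/mL lost its call (0.11; adjusted p = 0.0694). Signs then turned at 20 µg/mL for Hspa1b (−0.0053), Hspa8 (−0.054), Hspb1 (0.042), Dnajb1 (0.041) and Hsp90aa1 (−0.15), at 100 µg/mL for Hspa8 (−0.056), Hspb1 (0.077) and Hsp90aa1 (−0.23), and at 500 µg/mL for Hspa8 (−0.048), none of them called. Where no value above shows it, the cause was not tested.

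Leaving out 1 library gave sign changes in member differences that were not called with all libraries. The values ran from −0.078 to 0.027 for Hspa1a and −0.014 to 0.035 for Bag3 between vehicle and non-treated. They ran from −0.055 to 0.11 for Hspa1a, −0.00052 to 0.032 for Hspb8, −0.030 to 0.051 for Cryab and −0.047 to 0.014 for Dnajb1 at 20 µg/mL, and from −0.019 to 0.043 for Hsp90aa1 at 100 µg/mL against vehicle. Cryab ran from −0.044 to 0.22 at 500 µg/mL against vehicle, −0.16 to 0.11 against 100 and −0.056 to 0.21 against 20, and Hspa8 from −0.024 to 0.027 for 100 against 20, −0.026 to 0.023 for 500 against 100 and −0.027 to 0.030 for 500 against 20.

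The groups share replicate numbers, but same-numbered libraries did not deviate together throughout (correlations of −0.257 to 0.222, with 6 of 15 libraries closer to their own number). At 500 against 100 µg/mL all correlations were positive (0.07 to 0.22). With so few libraries per group these values cannot exclude that same-numbered libraries form a set. With the replicate block, the member count fell to 0 for vehicle against non-treated, where Hspb8 lost its call (adjusted p = 0.0539), and no other count moved by over 1.5 times.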
